A study of Mus musculus with 6 samples.

Results

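The genes described here are the secreted Wnt ligands and the proteins that receive, boost or block them outside the cell, measured by RNA-seq in control and senescent cultures of adult mouse fibroblasts. By symbol, 55 of the 43346 genes in the count table were taken, namely 19 *Wnt* ligands, 10 Frizzled receptors, 4 co-receptors (*Lrp5*, *Lrp6*, *Ror1*, *Ror2*), 4 R-spondins, 3 R-spondin receptors, 2 ubiquitin ligases that act on the receptors, 6 inhibitors that bind Wnt itself, 4 Dickkopfs, 2 enzymes that add or remove the lipid on Wnt, and *Axin2*. In senescent cells most detectable ligands, the inhibitors *Wif1*, *Sfrp1* and *Dkk2*, the R-spondin receptor *Lgr6* and *Axin2* were higher. *Wnt16*, *Fzd2*, *Fzd4*, *Fzd9*, *Lgr4* and the co-receptors *Lrp6* and *Ror1* were lower. The ligand with the highest level per length was *Wnt16* in control and *Wnt5a* in senescent cells.

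The cells were primary wild-type mouse adult fibroblasts (MAFs) grown from the ears of female C57BL6/J mice. Control MAFs received a sham exposure, and senescent MAFs were exposed to X-rays at 20 Gy, followed by further culture. The text of the study gives no matching culture time for control MAFs, and the parts of irradiation and culture in the values were not tested. Both groups received a dexamethasone pulse of 100 nM for 2 h, which resets the circadian clock, and were harvested 12 h afterwards, so all values belong to that one time. Each group had 3 libraries, and because the labels do not say whether these came from separate animals or cultures, each p-value measures only the spread among these libraries, which may be technical.

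Totals ran from 50288454 to 82229553 counts per library. The proliferation marker *Mki67* was at a mean of 589 CPM (counts scaled to a common library size of 1e+06) in control and 9.60 CPM in senescent MAFs, and the cell cycle inhibitor *Cdkn1a* was at 123 and 619.5 CPM. A list of 12 fibroblast markers summed to between 65400 and 67380 CPM in control and between 49000 and 54360 CPM in senescent libraries, and 7 of its genes were lower and 3 higher. Of 12 chondrocyte markers, all 11 tested were lower in senescent MAFs, and their sum went from between 5677 and 6296 CPM to between 382.4 and 477.9 CPM. *Col2a1*, a defining collagen of cartilage, was at 2717 CPM in control MAFs, so the control cultures of these ear-derived cells held cartilage transcripts at a high level. Markers of macrophages (18.74 to 21.83 CPM in senescent libraries), endothelium (8.165 to 8.708 CPM) and skeletal muscle (1.588 to 1.732 CPM) were at low summed levels and above their control ranges of 8.3 to 9.053, 2.546 to 2.929 and 0.1635 to 0.4411 CPM, and no marker on these lists was at 0 in all libraries. Keratinocyte markers summed to 23.82 to 25.6 CPM in control and 20.63 to 28.66 CPM in senescent libraries, but single markers went both ways, with *Krt15* at a mean of 0.0784 and 5.33 CPM, *Cdh1* at 0.477 and 1.91 CPM and *Trp63* at 13.1 and 4.17 CPM. Schwann cell and melanocyte markers summed to 51.54 to 56.6 CPM in control and 46.07 to 51.45 CPM in senescent libraries. The part of these changes in the Wnt values was not tested, and in bulk RNA fewer cells of a type and less RNA per cell cannot be told apart. Senescent replicate 3 stood apart from the other senescent libraries, with a median squared difference per gene of 12.74 and 16.34 times the counting expectation against 2.144 between replicates 1 and 2. Among controls, replicate 1 was farther from the others (4.629 and 4.134) than replicates 2 and 3 were from each other (1.753).

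Wnts are secreted glycoproteins that carry a lipid, attached by Porcupine, with which they grip Frizzled receptors on the cell surface. With the co-receptors Lrp5 and Lrp6 they stabilise β-catenin, which enters the nucleus and switches on targets with TCF and LEF factors, while with Ror1, Ror2 or other partners they act on cell polarity, movement and calcium without β-catenin. R-spondins and their Lgr receptors raise the response by removing the ligases Znrf3 and Rnf43, which otherwise clear Frizzleds from the membrane. Secreted Frizzled-related proteins and Wif1 bind Wnts, Dickkopfs bind the co-receptors, and Notum cuts off the lipid, so a fibroblast can both send Wnt signals and damp them.

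Of the 55 genes, 47 held enough counts to be tested, and 8 (*Wnt3a*, *Wnt8a*, *Wnt8b*, *Wnt9b*, *Rspo4*, *Rnf43*, *Dkk1*, *Dkk4*) did not. In the quasi-likelihood test of edgeR, Benjamini-Hochberg adjusted over the 17589 tested genes (the edgeR test in what follows), 29 were higher in senescent MAFs, where 36.2% of all tested genes were, and 11 were lower, where 34.1% of all tested genes were. At the threshold in the methods of the study for a differentially expressed gene, an unadjusted p under 0.05 with a fold change over 2, 21 genes were higher (17.8% of all tested genes were) and 7 lower (12.3%). At a stricter p under 1e-05, 17 were higher (8.27% of all tested genes) and 6 lower (7%), and *Wnt1*, *Wnt6*, *Wnt10a*, *Wnt10b* and *Sfrp5* were no longer among them. The results section of the study prints 1e-05, not 0.05, as the p beside its fold change over 2. The median log2 fold change was 0.79 over the 47 and 0.01 over all tested genes. Genes at a low level leaned upward across the transcriptome: among the 7830 tested genes with a mean under 10 CPM over all libraries, 40.6% were higher, 31.3% were higher by more than 2-fold and 26.2% were lower. Among the 28 Wnt genes of that low level, 20 were higher, 16 were higher by more than 2-fold and 2 were lower, counts that include *Wnt1*, *Wnt2*, *Wnt3*, *Wnt6*, *Wnt7b* and *Sfrp4*, which met the filter through their senescent libraries alone, and *Sfrp5*, which met it through its control libraries alone. A filter met through a single group favours genes that differ between the groups, so no p is given for any of them. Without a filter, 5 of the 8 untested genes (*Wnt3a*, *Wnt8b*, *Wnt9b*, *Rspo4* and *Rnf43*) also passed as higher. Each had 13 to 45 senescent reads and at most 1 control read in all. That run leaned upward as a whole, with a median log2 fold change of 0.315 over its 29776 genes. The share of all genes called in it is not given here, so nothing is read from these 5. Without senescent replicate 3 the counts were 30 higher and 12 lower. How many of all tested genes had groups without overlap is not given here. Statements on overlap in what follows therefore only describe the libraries of the named genes.

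**Figure D1:**
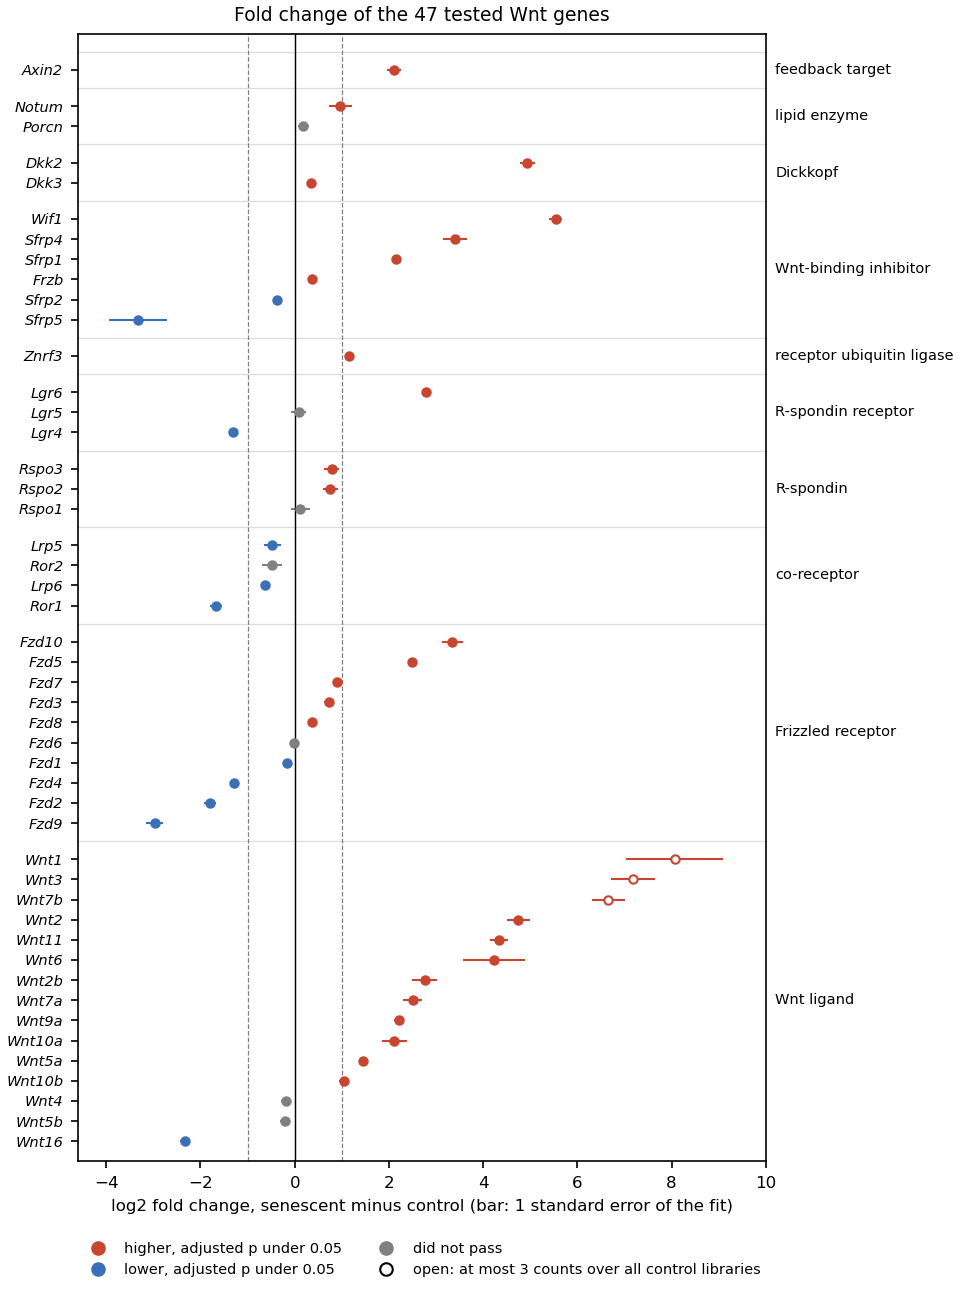
Log2 fold change (senescent minus control, x axis) of each of the 47 tested Wnt genes, grouped by role, with bars of 1 standard error of the fit, dashed lines at a 2-fold change, red for higher, blue for lower and grey for genes that did not pass; open points had at most 3 counts over all control libraries, so their position depends on the prior count of the fit. Ligands lie mostly to the right with *Wnt16* on the left, and co-receptors lie on the left.

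In control MAFs *Wnt16* and *Wnt5a* made up most of the ligand level, *Wnt5b* held 12.2% and *Wnt4* 5.82% of it, and most other ligands were faint. Of the 19 ligands, 12 were higher, 1 was lower, 2 did not pass the test and 4 were below the level for testing. The counts of higher ligands are a description, since 5 of them were let in by their senescent libraries alone. With at least 10 counts in every library, a filter that instead drops genes nearly silent in either group, 9 ligands were tested, of which 6 were higher and 1 lower, and over all roles 38 genes were tested, of which 21 were higher and 8 lower, where 33.9% and 34.8% of all genes so filtered were. On a scale per length (RPKM, the CPM divided by the gene length in kilobases), all ligands together summed to 16.2 ± 0.125 in control and 25.9 ± 0.862 in senescent MAFs (SD, n = 3), a ratio of 1.60.

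*Wnt5a*, the textbook ligand of the branch without β-catenin, lies at chr14:28504750-28527447 (mm10). It was at 33.9, 31.98 and 33.8 CPM in the control libraries and 82.9, 87.4 and 103 CPM in the senescent ones. All senescent libraries were above all control libraries, with a log2 fold change of 1.45 ± 0.09 (SE, edgeR adjusted p = 3.3e-06). *Wnt16*, a ligand known from bone and joint tissue, lies at chr6:22288227-22298522 and was at 31.7, 31.5 and 31.2 CPM in control libraries against 6.13, 7.09 and 5.47 CPM in senescent libraries. It was the single ligand that was lower, by a log2 fold change of -2.34 ± 0.10 (edgeR adjusted p = 5.79e-07), and its groups did not overlap. Per length, *Wnt16* made up 44.6% of the summed ligand RPKM in control and 5.52% in senescent MAFs, and *Wnt5a* made up 26.3% and 44.9%. On this scale the leading ligand transcript thus went from *Wnt16* (7.22 RPKM in control, 1.43 in senescent) to *Wnt5a* (4.25 and 11.6 RPKM). By CPM, without division by length, *Wnt5a* was already slightly above *Wnt16* in each control library.

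*Wnt11*, which guides cell movement and kidney branching in the embryo, was under 1 CPM in control MAFs and among the leading ligands in senescent MAFs. Its level was 0.381, 0.418 and 0.429 CPM in control and 8.57, 9.64 and 6.72 CPM in senescent libraries, 20.2-fold higher (log2 fold change 4.33 ± 0.19, edgeR adjusted p = 5.58e-07). *Wnt9a*, required for joint formation, was at 1.34, 1.24 and 1.31 CPM and then 5.99, 6.46 and 5.59 CPM, a log2 fold change of 2.21 ± 0.11 (edgeR adjusted p = 1.02e-06). *Wnt10b*, which favours bone over fat formation, was at 2.005, 2.24 and 2.21 and then 4.37, 4.82 and 4.19 CPM, a log2 fold change of 1.05 ± 0.11 (edgeR adjusted p = 6.3e-05). None of these 3 genes had overlapping groups. Of the summed ligand RPKM, *Wnt11* made up 0.697% in control and 8.84% in senescent MAFs, *Wnt9a* 2.41% and 6.98%, and *Wnt10b* 5.70% and 7.38%.

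*Wnt2*, a ligand of the developing lung, was at 0.160, 0.100 and 0.0817 CPM in control and 2.85, 3.63 and 2.80 CPM in senescent libraries (log2 fold change 4.75 ± 0.25). *Wnt2b* was at 0.180, 0.234 and 0.347 and then 1.41, 1.65 and 2.09 CPM (2.76 ± 0.27, edgeR adjusted p = 4.37e-05). The limb-patterning ligand *Wnt7a* was at 0.241, 0.318 and 0.245 and then 1.75, 1.41 and 1.48 CPM (2.50 ± 0.20, edgeR adjusted p = 1.36e-05). All 3 were under 1 CPM in every control library and above it in every senescent library. *Wnt10a*, known from teeth and hair follicles, went from 0.261, 0.335 and 0.266 CPM to 1.34, 1.53 and 0.936 CPM (2.12 ± 0.26, edgeR adjusted p = 0.000185), with replicate 3 the lowest of the senescent libraries.

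For 4 more ligands the control libraries held almost no reads, so the raw counts are given. *Wnt7b* had 1, 1 and 1 counts in control and 128, 187 and 141 in senescent libraries (0.0200, 0.0167 and 0.0204 against 2.31, 2.36 and 1.67 CPM). Its ratio at equal depth was 110.0 with a 95% counting interval of 37.4 to 535. *Wnt3*, which sets up the body axis of the embryo, had 1, 0 and 0 counts in control and 68, 104 and 91 in senescent libraries (0.0200, 0 and 0 against 1.23, 1.31 and 1.08 CPM), a ratio of 190 with an interval of 33.9 to 7547. *Wnt1*, the founding member of the family, had no read in any control library and 44, 38 and 31 in the senescent ones, at least 9.56-fold higher when the control group is set at 3 counts per library. *Wnt6* had 0, 4 and 0 counts and then 32, 30 and 49 (log2 fold change 4.24 ± 0.66), and without control replicate 2, which held all of its control reads, the fitted value was 8.02. The intervals and floors cover counting error only. The median log2 fold change over the tested ligands was 2.50, beside 0.01 over all tested genes. That median includes *Wnt1*, *Wnt2*, *Wnt3*, *Wnt6* and *Wnt7b*, which met the filter through their senescent libraries alone, so it is a description. Putting these ratios and bounds in place of the fitted values could not move it, since the replaced genes lay above it either way.

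*Wnt4* and *Wnt5b* were the tested ligands that did not pass. *Wnt4* was at 3.81, 4.33 and 3.70 CPM in control and 3.61, 3.52 and 3.28 CPM in senescent libraries (log2 fold change -0.19 ± 0.11, edgeR adjusted p = 0.141). *Wnt5b*, the close relative of *Wnt5a*, was at 5.13, 5.47 and 5.07 and 4.44, 4.80 and 4.27 CPM (-0.22 ± 0.09, edgeR adjusted p = 0.0683). Both had all control libraries above all senescent ones by small margins. *Wnt5b* overlaps *Fbxl14*, and whether the counts were split by strand is not given in the sources used here. Of the 4 untested ligands, *Wnt9b* had no control read and 7, 10 and 6 senescent reads (at least 1.89-fold higher), *Wnt8b* had none and then 5, 2 and 6 (at least 1.09-fold), *Wnt3a* had 0, 1 and 0 and then 3, 9 and 8 (ratio 14.5, 95% counting interval 2.32 to 600), and *Wnt8a* had 1, 6 and 1 and then 6, 3 and 3 reads with overlapping groups.

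**Figure D2:**
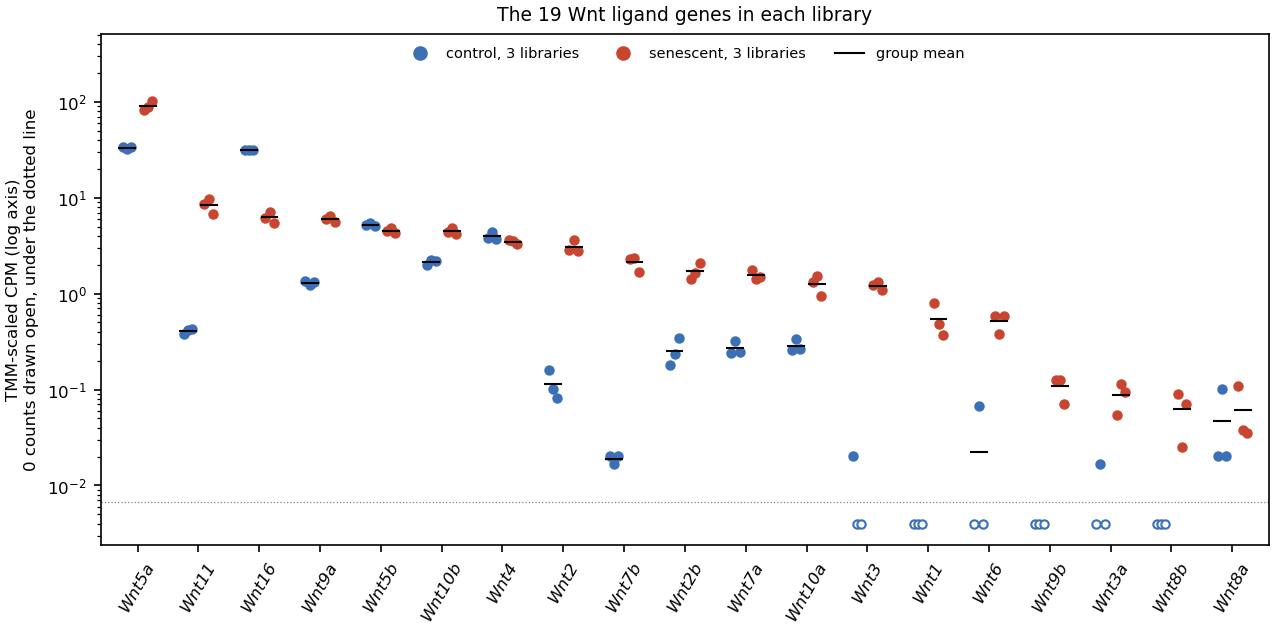
TMM-scaled CPM (y axis, log scale) of the 19 *Wnt* genes in each of the 3 control (blue) and 3 senescent (red) libraries, with group means as black lines and libraries with 0 counts drawn as open points under the dotted line. *Wnt16* is the single gene with clearly higher control points, and the right side holds genes whose control libraries are at or near 0.

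In the mouse genome 8 of the *Wnt* genes sit in 4 pairs of chromosomal neighbours with no protein-coding gene between them. The pairs are *Wnt3a* and *Wnt9a* on chromosome 11 (16175 bases apart), *Wnt9b* and *Wnt3* on chromosome 11 (24328 bases), *Wnt6* and *Wnt10a* on chromosome 1 (6193 bases), and *Wnt10b* and *Wnt1* on chromosome 15 (11706 bases). Of these 8 genes, 6 could be tested and all 6 were higher in senescent MAFs, beside 12 of all 15 tested ligands and 40.6% of all tested genes under 10 CPM, so nothing is read from the pairing. The untested pair members *Wnt3a* and *Wnt9b* had more reads in each senescent library than in any control library.

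The promoters of the 2 called ligands whose window held a searched motif are shown because the series concerns the clock factor BMAL1 and the factor AP-1, and because Wnt targets are read through TCF and LEF. Windows run from 250 bases before to 50 after the start and come from RefSeq (GRCm38.p6), where 35 of the 55 genes had an entry, with 39 windows in all. Searched on both strands were the E-box CACGTG, bound by clock factors (7.15% of all 32851 promoters), the AP-1 site TGAGTCA or TGACTCA (5.20%), and the TCF/LEF site CTTTGAT or CTTTGAA (8.65%), and a base could count toward more than one motif. Among the 39 Wnt windows the E-box was found in 4 (10.3%, *Fzd9*, *Rspo4*, *Wif1* and *Wnt9a*), the AP-1 site in 2 (5.13%, *Ror2* and *Wnt5b*) and the TCF/LEF site in 3 (7.69%, *Dkk1*, *Wnt11* and *Wnt5b*). No window of a gene called higher or lower held the AP-1 letters, which says only that they are not in these windows. *Wnt11* (chr7:98834862-98835161, plus strand) carries a TCF/LEF match and *Wnt9a* (chr11:59306680-59306979, plus strand) an E-box, both in capitals:
Wnt11: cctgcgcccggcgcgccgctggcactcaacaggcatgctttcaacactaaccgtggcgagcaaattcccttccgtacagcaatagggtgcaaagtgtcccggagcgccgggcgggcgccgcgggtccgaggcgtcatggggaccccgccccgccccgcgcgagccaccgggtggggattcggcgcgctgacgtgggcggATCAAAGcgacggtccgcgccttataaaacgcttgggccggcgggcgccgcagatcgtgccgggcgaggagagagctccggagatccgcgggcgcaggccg
Wnt9a: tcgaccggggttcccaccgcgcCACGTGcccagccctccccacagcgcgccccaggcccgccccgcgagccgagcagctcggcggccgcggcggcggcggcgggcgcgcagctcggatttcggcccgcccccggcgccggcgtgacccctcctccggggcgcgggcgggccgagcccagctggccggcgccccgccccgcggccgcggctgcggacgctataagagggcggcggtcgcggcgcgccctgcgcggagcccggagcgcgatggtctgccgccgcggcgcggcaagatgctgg
The match of *Wnt11* begins 51 bases before the start and that of *Wnt9a* 228 bases before it, and each is a description of the letters, not a measured site.

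The Frizzled receptors moved in both directions. Of 10 genes, 5 were higher, 4 were lower and *Fzd6* did not pass, where 36.2% and 34.1% of all tested genes were higher and lower. Their summed level per length was 79.1 ± 2.56 RPKM in control and 59.4 ± 2.76 RPKM in senescent MAFs, 1.33-fold lower. *Fzd2* was at 62.8, 75.98 and 73.7 CPM in control and 20.1, 23.9 and 17.03 CPM in senescent libraries (log2 fold change -1.80 ± 0.13, edgeR adjusted p = 9.59e-06). *Fzd4*, which also serves Norrin in retinal vessels, was at 54.9, 51.3 and 48.2 and then 19.6, 20.8 and 23.2 CPM (-1.28 ± 0.09, edgeR adjusted p = 5.58e-06). *Fzd9*, known from bone and hippocampus, fell most, from 19.9, 23.1 and 21.7 to 2.65, 3.53 and 2.05 CPM (-2.97 ± 0.19, edgeR adjusted p = 3.87e-06). In these 3 genes every senescent library was below every control library. The chondrocyte marker sum and these receptors fell in the same libraries, and the part of one in the other was not tested.

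As counted, *Fzd9* begins at chr5:135251230, upstream of its RefSeq start, so the E-box described next lies inside the gene as counted. The *Fzd9* promoter window (chr5:135250998-135251297, minus strand) is the one receptor window with an E-box, 88 bases before the RefSeq start and in capitals:
Fzd9: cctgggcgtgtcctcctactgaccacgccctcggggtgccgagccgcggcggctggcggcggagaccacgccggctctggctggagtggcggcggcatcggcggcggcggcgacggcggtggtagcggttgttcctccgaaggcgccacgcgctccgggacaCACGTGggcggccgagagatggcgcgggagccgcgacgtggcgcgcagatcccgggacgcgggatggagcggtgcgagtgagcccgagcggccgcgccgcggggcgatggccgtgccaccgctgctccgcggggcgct

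In the opposite direction, *Fzd5* was at 7.14, 6.88 and 8.07 CPM in control and 39.4, 41.1 and 43.5 CPM in senescent libraries, 5.62-fold higher (log2 fold change 2.49 ± 0.09, edgeR adjusted p = 1.81e-07). *Fzd10* was at 0.261, 0.184 and 0.184 and then 2.22, 2.41 and 1.80 CPM (3.35 ± 0.22, edgeR adjusted p = 5.23e-06), so it was close to undetected in control and stayed low in senescent MAFs. *Fzd7*, a receptor of many stem and progenitor cells, was at 24.9, 27.3 and 26.3 and then 47.02, 49.6 and 48.7 CPM (0.89 ± 0.06, edgeR adjusted p = 7.75e-06). None of these overlapped between groups. *Fzd8*, the nearest relative of *Fzd5*, was at 18.6, 20.8 and 20.2 and then 23.9, 28.7 and 24.7 CPM (0.38 ± 0.09, edgeR adjusted p = 0.00685), and *Fzd3*, a planar polarity receptor, was at 3.51, 3.30 and 3.49 and then 5.23, 5.35 and 6.46 CPM (0.73 ± 0.11, edgeR adjusted p = 0.000636).

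*Fzd1* was at 87.6, 87.7 and 86.5 CPM and then 77.6, 81.6 and 74.8 CPM, a small decrease that passed (-0.16 ± 0.06, edgeR adjusted p = 0.0299) but was lost when any library except senescent replicates 2 and 3 was left out, with edgeR adjusted p of 0.0850 to 0.101. The call of *Fzd1* was also lost with library size scaling (adjusted p = 0.210), without a filter (0.0535), with at least 10 counts in every library (0.0981), with the replicate block (0.0863), all in edgeR, and by DESeq2 (0.0665). *Fzd6* was at 7.38, 7.36 and 7.68 and 6.96, 7.23 and 7.93 CPM (-0.02 ± 0.09, edgeR adjusted p = 0.865), and its groups overlapped. Within the family, *Fzd1* held 26.5% of the summed RPKM in control and 31.6% in senescent MAFs, *Fzd2* 24.4% and 9.31%, *Fzd4* 17.7% and 9.69%, *Fzd9* 11.9% and 2.01%, *Fzd7* 7.29% and 18.02%, *Fzd8* 7.49% and 12.95%, and *Fzd5* 1.35% and 10.1%. *Fzd1* and *Fzd2* thus led in control MAFs, and *Fzd1* and *Fzd7* in senescent MAFs.

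**Figure D3:**
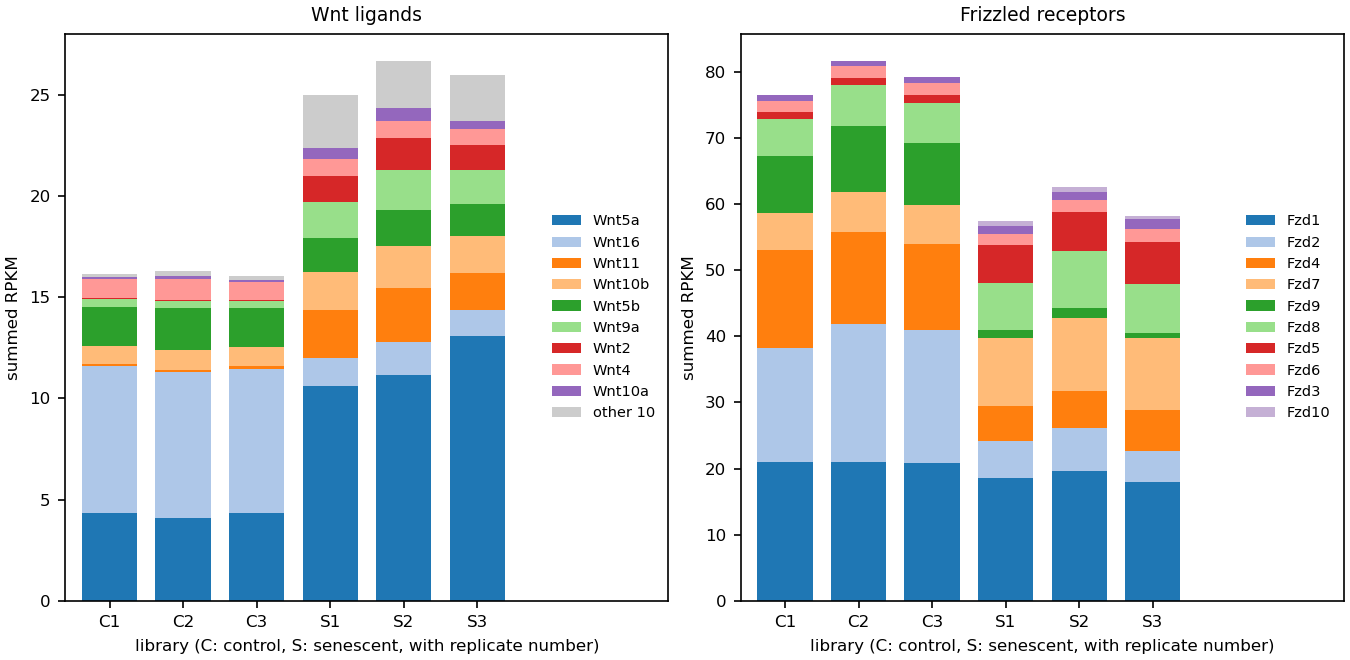
Summed RPKM of the *Wnt* ligands (left) and the Frizzled receptors (right) in each library, stacked by gene, with the 10 faintest ligands joined in grey. Control bars of the left panel are dominated by *Wnt16* and *Wnt5a*, senescent bars are taller and led by *Wnt5a*, and in the right panel senescent bars are shorter with wider bands of *Fzd7* and *Fzd5*.

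No co-receptor was higher. Of 4 genes, 3 were lower, where 34.1% of all tested genes were. The summed level of the 4 genes went from 44.4 ± 0.588 to 28.8 ± 0.350 RPKM, 1.54-fold lower. *Lrp6* was at 301, 290.1 and 287 CPM in control and 176, 176 and 211 CPM in senescent libraries (log2 fold change -0.64 ± 0.08, edgeR adjusted p = 0.000221). *Lrp5* was at 83.8, 98.2 and 96.4 and then 74.9, 78.1 and 47.7 CPM (-0.47 ± 0.17, edgeR adjusted p = 0.0402). Senescent replicate 3 was far below the others for *Lrp5*, and the call was lost when any one control library was left out (adjusted p of 0.0547 to 0.111 by the edgeR test), with library size scaling (0.0712), without a filter (0.135) and under the filter of 10 counts per library (0.0675). Without senescent replicate 3 the log2 fold change of *Lrp5* was -0.28 and still passed.

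*Ror1*, a receptor for Wnt5a, was at 11.7, 11.8 and 11.8 CPM and then 3.01, 4.0004 and 4.02 CPM (-1.67 ± 0.12, edgeR adjusted p = 8.7e-06), with no overlap. *Ror2*, the other Wnt5a receptor, was at 11.4, 14.4 and 13.1 and then 10.7, 10.9 and 6.23 CPM (-0.49 ± 0.21, edgeR adjusted p = 0.0670). For *Ror2* the groups did not overlap, and the test was passed without senescent replicate 3 (-0.27, edgeR adjusted p = 0.0140) or without senescent replicate 2 (-0.62, edgeR adjusted p = 0.0449), as well as by DESeq2 (adjusted p = 0.0338) and with the replicate block (edgeR adjusted p = 0.0486). Ligand and receptor of this branch therefore differed in direction, *Wnt5a* being higher and *Ror1* lower in the same libraries.

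In the R-spondin axis 2 ligands and 1 ligase were higher, and the receptors went both ways. Of all tested genes 36.2% were higher and 34.1% lower. *Rspo2* was at 1.04, 1.20 and 1.29 CPM in control and 1.66, 2.12 and 2.14 CPM in senescent libraries (log2 fold change 0.75 ± 0.16, edgeR adjusted p = 0.00309), and *Rspo3* was at 1.48, 1.69 and 1.41 and then 2.45, 2.32 and 3.13 CPM (0.79 ± 0.16, edgeR adjusted p = 0.00250). Both were under 2-fold higher without overlap. *Rspo1* stayed under 1 CPM in every library, with overlapping groups (0.12 ± 0.20, edgeR adjusted p = 0.628). *Rspo4* had no control read and 13, 21 and 11 senescent reads, at least 3.67-fold higher against a floor of 3 counts per library.

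*Lgr4*, the most widely expressed receptor for R-spondins, was at 70.3, 67.5 and 67.4 CPM in control and 25.4, 26.1 and 30.7 CPM in senescent libraries (log2 fold change -1.32 ± 0.08, edgeR adjusted p = 3.99e-06). *Lgr6*, a marker of hair follicle stem cells, was at 6.66, 7.61 and 7.46 and then 50.3, 49.7 and 50.6 CPM (2.79 ± 0.08, edgeR adjusted p = 4.85e-08). *Krt15*, a keratin of the hair follicle bulge, was also higher in these libraries (0.0784 and 5.33 CPM). Of the 6 keratinocyte markers tested, 2 were higher, *Trp63* was lower (13.1 and 4.17 CPM) and the others did not pass. Whether *Krt15* and *Lgr6* were related was not tested. The senescent spread of *Lgr6* was 0.469 CPM (SD, n = 3) around a mean of 50.2 CPM. *Lgr5*, the intestinal stem cell marker, was at 2.33, 2.16 and 1.66 and 2.17, 1.94 and 2.43 CPM with overlapping groups (0.09 ± 0.16, edgeR adjusted p = 0.637). Per length, *Lgr4* was at 11.6 and then 4.66 RPKM and *Lgr6* at 1.06 and then 7.32 RPKM, so their order reversed while the sum of the 3 receptors was 12.9 ± 0.230 and 12.2 ± 0.555 RPKM.

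*Znrf3*, the ligase that R-spondins remove and itself a β-catenin target, was at 7.08, 6.96 and 7.09 CPM in control and 15.2, 15.3 and 16.4 CPM in senescent libraries (1.15 ± 0.08, edgeR adjusted p = 4.93e-06). Its partner *Rnf43* had no control read and 6, 7 and 4 senescent reads, at least 1.42-fold higher.

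The secreted inhibitors gained more RPKM in sum than any other role. Of the 6 inhibitors that bind Wnt, 4 rose and 2 fell, beside 36.2% and 34.1% of all tested genes. These counts are a description, since *Sfrp4* was let in by its senescent libraries alone and *Sfrp5* by its control libraries alone. The filter of 10 counts per library kept 4 inhibitors, 3 of them higher and 1 lower, beside 33.9% and 34.8% of all genes it kept. The sum over all 6 inhibitors went from 60.4 ± 0.368 to 141.5 ± 6.75 RPKM, a ratio of 2.34. *Sfrp1* made up 36.7% of that sum in control and 69.4% in senescent MAFs. Its level was 100.3, 95.6 and 94.6 CPM in control and 409, 418 and 460.5 CPM in senescent libraries, 4.43-fold higher (log2 fold change 2.15 ± 0.07, edgeR adjusted p = 1.02e-07). *Wif1*, Wnt inhibitory factor 1, was at 0.301, 0.385 and 0.266 CPM and then 14.1, 15.6 and 15.4 CPM, 46.6-fold higher (5.54 ± 0.14, edgeR adjusted p = 3.43e-08). *Sfrp4* was at 0.160, 0.100 and 0.123 and then 1.62, 1.26 and 1.20 CPM (3.40 ± 0.26), and in all 3 genes the groups were far apart.

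The *Wif1* promoter window (chr10:121033754-121034053, plus strand) is the remaining window of a called gene with a match, and it holds an E-box 210 bases before the start, in capitals:
Wif1: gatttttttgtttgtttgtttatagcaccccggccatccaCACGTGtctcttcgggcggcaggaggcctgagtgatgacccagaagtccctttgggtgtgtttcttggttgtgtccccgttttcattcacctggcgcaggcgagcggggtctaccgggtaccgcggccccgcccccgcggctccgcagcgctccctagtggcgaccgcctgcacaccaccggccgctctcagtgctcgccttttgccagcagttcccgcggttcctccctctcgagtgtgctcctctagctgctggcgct

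*Frzb*, the inhibitor also called Sfrp3 and known from cartilage, was at 46.1, 46.1 and 45.1 CPM and then 56.96, 56.8 and 63.5 CPM (0.37 ± 0.06, edgeR adjusted p = 0.00119). Its modest increase was opposite in direction to the 11 chondrocyte markers tested. *Sfrp2* was at 49.2, 50.6 and 51.5 and then 38.9, 40.96 and 36.6 CPM (-0.38 ± 0.06, edgeR adjusted p = 0.000973), with no overlap, and its share of the inhibitor RPKM was 38.8% in control and 12.8% in senescent MAFs. *Sfrp5* had 51, 67 and 38 counts in control and 4, 17 and 0 in senescent libraries (log2 fold change -3.32 ± 0.62). Most of its senescent reads were in replicate 2, and its log2 fold change was -4.97 without that library and -2.65 without senescent replicate 3.

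Among the Dickkopfs, *Dkk2*, whose product binds Lrp6, rose from 0.241, 0.351 and 0.409 CPM in control to 10.3, 9.62 and 11.04 CPM in senescent libraries, 30.7-fold (4.94 ± 0.16, edgeR adjusted p = 1.28e-07). *Dkk3*, a divergent member that does not act on Lrp6 like the others, was at 243, 245 and 242 and then 313, 315 and 297 CPM (0.34 ± 0.05, edgeR adjusted p = 0.00057). At 72.5 and 91.8 RPKM, *Dkk3* held nearly all of the Dickkopf level in both groups. *Dkk1* had no control read and 2, 3 and 1 senescent reads and *Dkk4* had 1 read in all libraries, so no fold is given for either, and *Dkk1*, the classic inhibitor of Lrp6, was at or under 3 counts everywhere.

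**Figure D4:**
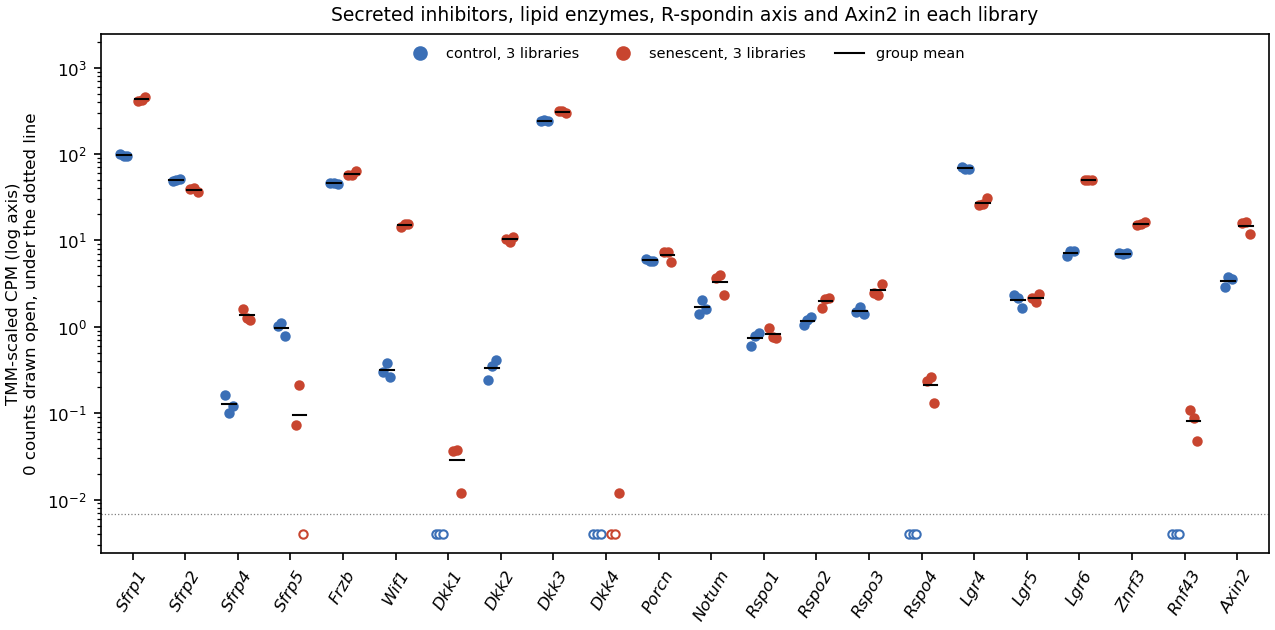
TMM-scaled CPM (y axis, log scale) of the secreted inhibitors, the lipid enzymes, the R-spondin axis and *Axin2* in each control (blue) and senescent (red) library, with group means as black lines and 0 counts as open points under the dotted line. *Wif1*, *Dkk2*, *Sfrp1*, *Lgr6* and *Axin2* have senescent points well above the control points, and *Lgr4* and *Sfrp5* have them below.

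Of the lipid enzymes *Notum* was higher and *Porcn* did not pass. *Porcn*, which adds the lipid, was at 6.05, 5.84 and 5.84 CPM in control and 7.25, 7.34 and 5.63 CPM in senescent libraries (0.19 ± 0.12, edgeR adjusted p = 0.196). Senescent replicate 3 lay below the control libraries and the other senescent libraries above them, and without it the value was 0.30 (edgeR adjusted p = 0.00445). *Notum*, which removes the lipid, was at 1.40, 2.06 and 1.59 and then 3.64, 4.03 and 2.33 CPM (0.97 ± 0.24, edgeR adjusted p = 0.00680), again with replicate 3 the lowest senescent library.

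*Axin2*, a general β-catenin target whose product feeds back on the pathway, was at 2.89, 3.73 and 3.60 CPM in control and 15.9, 16.1 and 12.01 CPM in senescent libraries. It was 4.30-fold higher (log2 fold change 2.10 ± 0.15, edgeR adjusted p = 9.26e-06), with the lowest senescent library well above the highest control library.

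Beyond the 55 genes, a list of 138 Wnt pathway genes written from general knowledge was followed, of which 126 were tested. On that list 48 genes were higher, 40 were lower and 38 did not pass the edgeR test, with a median log2 fold change of -0.01, so as a whole it had shares of 38.1% and 31.7% beside the 36.2% and 34.1% of all tested genes. Its groups differed among themselves in these counts. Of 25 tested β-catenin target genes, 16 rose and 4 fell, and their median log2 fold change was 1.29. Of 20 tested nuclear effectors, 4 were higher and 10 lower, and of 19 tested co-receptors and extracellular modulators 5 were higher and 11 lower. Of 31 tested genes of β-catenin transduction 12 were higher and 8 lower, as were 12 and 8 of 36 genes of the planar polarity and calcium branch.

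Among the target genes, *Nrcam*, a neural adhesion molecule, rose from 0.465 to 61.6 CPM on average (log2 fold change 7.06 ± 0.13, edgeR adjusted p = 1.29e-08). *Fst*, the activin antagonist follistatin, rose from 28.5 ± 1.16 to 167 ± 12.2 CPM (SD, n = 3) and *Ccnd1*, cyclin D1, from 238 ± 11.3 to 871 ± 24.8 CPM. *Lef1*, a factor that acts with β-catenin and is its target, was at 0.842, 0.870 and 1.29 CPM in control and 4.19, 4.11 and 4.12 CPM in senescent libraries (2.06 ± 0.16, edgeR adjusted p = 1.47e-05). Its relative *Tcf7* did not pass (7.43 and 6.86 CPM, edgeR adjusted p = 0.325), nor did the feedback genes *Nkd1* (0.960 and 1.18 CPM, edgeR adjusted p = 0.251) and *Apcdd1* (2.99 and 2.92 CPM, edgeR adjusted p = 0.847). *Sp5*, another common target, had no control read and a mean of 0.0793 CPM in senescent MAFs and was not tested.

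*Ctnnb1*, which encodes β-catenin itself, was lower, at a mean of 1243 CPM in control and 687 CPM in senescent MAFs (-0.85 ± 0.05, edgeR adjusted p = 2.03e-06). *Amer1*, a membrane protein that works with Axin and Apc, fell from 37.6 ± 0.692 to 13.6 ± 1.03 CPM, and *Nkd2*, a Dishevelled-binding antagonist, rose from 2.29 ± 0.434 to 13.7 ± 0.640 CPM. *Wls*, the carrier that takes Wnts to the cell surface, was at 334, 305 and 307 CPM and then 361, 359 and 438 CPM (0.29 ± 0.09, edgeR adjusted p = 0.0196). Of the nuclear genes, the repressors *Tle1* (22.2 to 51.6 CPM) and *Tle4* (1.49 to 6.97 CPM) were higher, and *Sox9*, the master factor of cartilage, was lower (215 to 50.9 CPM), like the chondrocyte markers in the same libraries.

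Outside the cell, the proteoglycan *Gpc4* rose from 29.5 ± 0.815 to 109 ± 4.64 CPM, while *Cthrc1*, a secreted protein that helps Wnt bind Frizzled and Ror2, fell from 90.001 ± 0.601 to 28.4 ± 1.28 CPM. *Gpr124*, the co-receptor that serves Wnt7 ligands in brain vessels, fell from 205 ± 12.97 to 32.7 ± 4.15 CPM, in libraries where *Wnt7a* and *Wnt7b* were higher. In the polarity branch *Vangl1* fell from 54.7 ± 0.576 to 21.3 ± 1.28 CPM, and *Prickle2* and the kinase *Rock2* rose, from 15.1 to 33.7 and from 246 to 591 CPM. Each of the 15 pathway genes named for the smallest p of its group had an edgeR adjusted p of 1.56e-05 or less.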

How the data were processed

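RNA-seq was measured in 3 control and 3 senescent MAF libraries made with a stranded mRNA kit from 200 ng of RNA. Paired reads had been aligned by the authors with STAR against mm10 (MAPRSeq pipeline), and the deposited values are raw counts per gene from Subread with each gene's length, replicates not pooled. The strand setting and the handling of reads that match several places are not given in the sources used here, so values of the 15 genes that overlap another listed gene are uncertain to that extent.

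Genes were filtered with filterByExpr, scaled by TMM and fitted with the robust quasi-likelihood model of edgeR 4.0.16 in R 4.3.3 with group as the single term, two-sided, with Benjamini-Hochberg adjustment over 17589 genes and a threshold of 0.05. CPM are counts scaled to a TMM-adjusted library size of 1e+06, and RPKM divide these by the deposited length. The step was checked on simulated counts. A count of 0 allows up to 3 counts, 0.0355 to 0.0613 CPM by library.

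The genes and lists were chosen with earlier results of these data known. Every chosen gene was accounted for, those with at least 1 CPM in either group with the value of each library. Of the pathway list the text names the 3 genes of smallest p per group and *Lef1*, *Tcf7*, *Nkd1*, *Apcdd1*, *Sp5*, *Ctnnb1* and *Wls*. Protein sequences were not used here, and the 4 printed promoters were chosen after values were seen as those of called genes with a motif match. DESeq2 1.42.0, other scalings and filters, a replicate block and leaving out each library were alternatives.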

Additional observations from a re-analysis of the deposited data

How the results depend on the processing

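The counts of Wnt genes called (29 higher, 11 lower), of those that also changed over 2-fold (21 and 7) and of pathway list genes (48 and 40) stayed within 1.5 times of these values in every alternative run, including a p under 1e-05 for changes over 2-fold (17 and 6), chosen after seeing the data. Leaving out each library in turn gave 29 to 30 higher and 9 to 12 lower Wnt genes, 20 to 22 and 7 with a change over 2-fold, and 41 to 54 and 38 to 48 list genes. DESeq2 gave 29 and 11, scaling by library size alone 29 and 9, no filter on low counts 34 and 9 of 55 genes tested (5 of the 34 are among the 8 not tested otherwise), and at least 10 counts in every library 21 and 8 of 38. Over all 29776 genes of the run without a filter the median log2 fold change was 0.315, beside 0.0085 in the main run. With the replicate block, 29 were higher and 11 lower (21 and 7 over 2-fold), with 44 and 39 list genes. Deviations of same-numbered libraries correlated at -0.145, 0.135 and -0.12, and libraries did not all correlate best with their own number. With 3 libraries per group, and senescent replicate 3 apart from the others, these values cannot show whether same-numbered libraries share an origin. Of the values of single genes under the alternatives, 524 kept direction and side of the threshold, 15 lost the call (*Fzd1* and *Lrp5*), 5 gained it (*Ror2* by DESeq2, the replicate block and without senescent replicate 2 or 3, *Porcn* without senescent replicate 3) and 11 changed sign, all of genes that did not pass. *Fzd6* was at a log2 fold change of 0.0024 with RLE scaling, 0.0036 with DESeq2, 0.0020 without control replicate 3, 0.0032 without senescent replicate 2, 0.0598 with library size alone, 0.0306 with at least 10 counts and 0.0243 without senescent replicate 1, and its values without 1 library ran from -0.0721 to 0.0243. *Rspo1* was at -0.0067 without control replicate 1 and -0.0033 without senescent replicate 1 (range -0.0067 to 0.2196), and *Lgr5* at -0.0385 without control replicate 3 and -0.0061 without senescent replicate 3 (range -0.0385 to 0.1929). The cause was not tested.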
